A study of Mus musculus with 1094 samples.

Results

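The 44 genes described here carry out or time DNA replication: they license and fire origins, synthesise DNA, supply nucleotides and rebuild chromatin, or belong to the cyclin E and E2F switch at the start of S phase. They were taken by symbol from the 23078 genes listed for 1094 single cells of the mouse dorsal cerebral cortex. All 44 were listed, and all 44 were among the 14093 genes tested, those with a mean of 1 TPM or more in at least 4 of 17 libraries. TPM is a gene's length-scaled share of a cell's transcripts, scaled to the same total in every cell, so levels can be compared between genes.

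The cells of 1 population at 1 stage form a library. Newborn neurons (NBN) came from the stages E16.5, E18.5, P1 and also P3, and basal progenitors (BP) from E12.5, E14.5, E16.5, E18.5 and P0, both from Tbr2::GFP mice. Neural stem cells (NSC) were taken at E10.5, E11.5, E13.5, E15.5, E17.5, E18.5, P0 and P1 from Hes5::GFP mice. All cells are labelled wild-type, C57Bl/6 and female, and the postnatal cells are labelled 1 day (P0), 2 days (P1) and 4 days old (P3). GFP was driven by the promoter of Tbr2 (Eomes), a transcription factor of intermediate progenitors, or of Hes5, a Notch target, and fluorescent protein can outlast promoter activity. The labels do not say how NBN and BP were parted, name no animals and give no batch.

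Before a cell divides, the origin recognition complex with Cdc6 and Cdt1 loads the ring of Mcm2 to Mcm7 onto DNA, and geminin (Gmnn) blocks reloading. The kinase Cdc7 with Dbf4 and cyclin E then switch the ring on by adding Cdc45 and the GINS complex, and polymerases, the Pcna clamp and its loader copy the DNA. Many of these genes are switched on together before S phase by E2F factors. In the developing cortex, stem cells divide at the ventricle, basal progenitors divide further out for a few rounds, and newborn neurons have left the cycle.

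Of the 1094 cells, 1075 with 500 or more genes at 1 TPM were kept, 208 NBN, 335 BP and 532 NSC. The depth of a cell is unknown, and the median number of genes per cell was lowest in NBN P1 (3189) and highest in NBN E16.5 (5764). Libraries did not all match their labels. In NBN P3, 37 of 40 cells held markers of another cell type, among them 18 with microglial and 17 with meningeal markers, and 11 had a neuron profile, that is a higher mean log2(TPM + 1) over 14 neuron genes than over 16 radial glia genes. In NSC E15.5, 77 of 86 cells had the neuron profile, as did 58 of 76 in NSC E17.5, 31 of 58 in NSC E11.5 and 35 of 66 in NSC E13.5. Erythroid markers were held by 34 cells of NSC E11.5 and 18 of NSC E10.5. NBN P1 and P3 also had the highest median mitochondrial shares, 19.6% and 12.7%, where the remaining 15 libraries had 5.25 to 8.50%, and its part in the low levels there was not tested. Hes5 itself averaged 3.07, 3.54, 2.27 and 3.74 TPM in NSC E11.5, E13.5, E15.5 and E17.5, and 10.2, 30.3, 52.5 and 54.7 TPM in NSC E10.5, E18.5, P0 and P1. Results are given with and without NBN P3 and NSC E15.5.

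Of the 44 genes, 42 had their highest library level in NSC and 29 their lowest in NBN P1 or P3. NSC made up 8 of the 17 libraries, and NBN P1 and P3 had medians of only 3189 and 3390 genes per cell. Summed over the 44 genes, a cell held on average 796 to 1869 TPM in the 4 NBN libraries, 1531 to 2948 TPM in the 5 BP libraries and 1571 to 9475 TPM in the 8 NSC libraries. NSC E10.5 gave the highest of all 17 library levels for 31 of the 44 genes. Among NSC libraries, E15.5 was lowest for 26 genes. NSC E10.5 lay above every NBN and BP library for 40 genes, NSC E13.5 for 33, and NSC E11.5 and P0 for 31 each. For NSC E17.5, E18.5, P1 and E15.5 the counts were 28, 18, 16 and 1. Highest, lowest and separated libraries were not counted over all genes, so these counts have no background share. A library's mean cannot tell fewer cycling cells from less RNA per cycling cell, so the values by cell follow below.

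**Figure D1:**
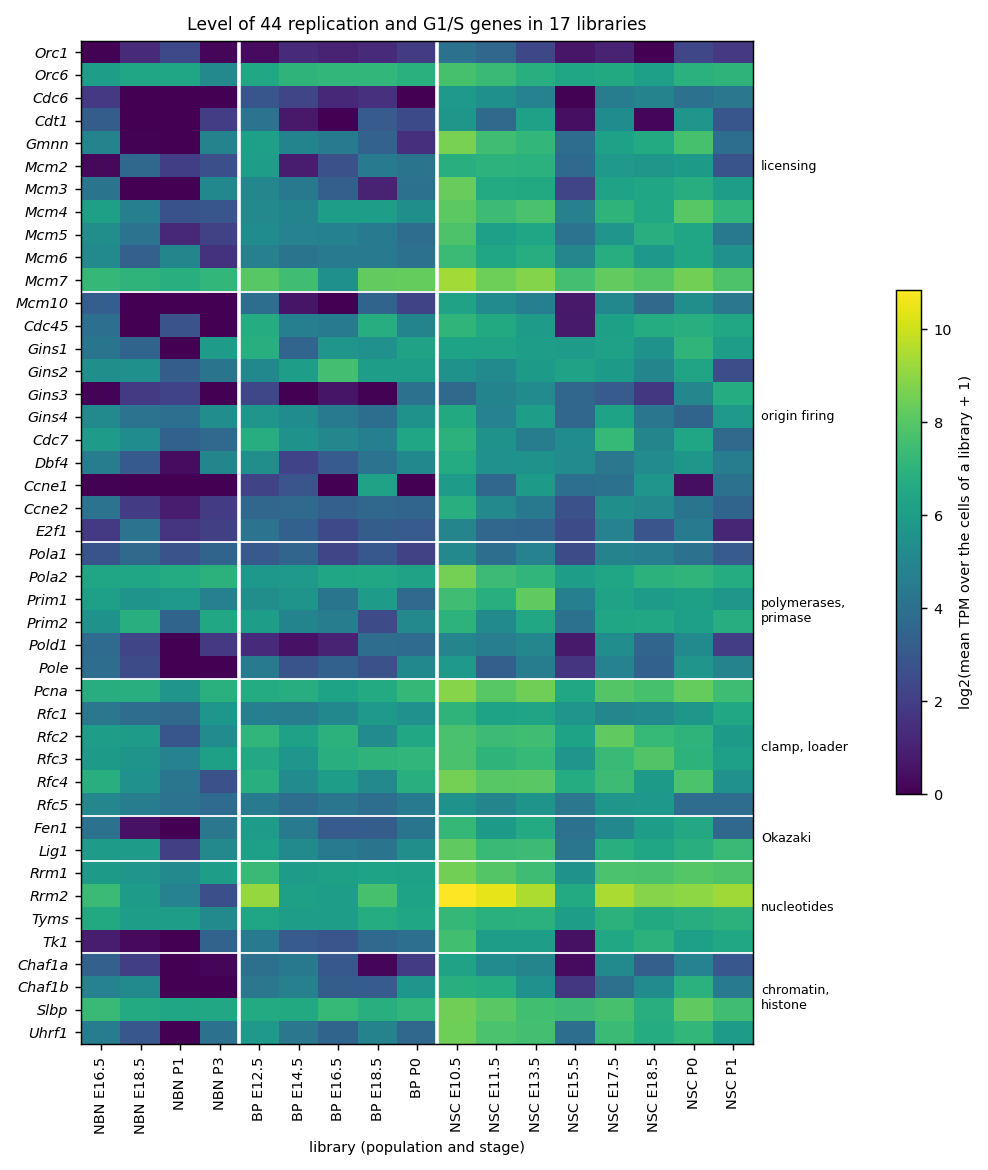
Level of each of the 44 genes (rows, grouped by role) in each of the 17 libraries (columns, NBN then BP then NSC), as log2 of the mean TPM over cells plus 1. The NSC columns are brightest at E10.5, and the lowest NSC summed level is 1571 TPM, at E15.5.

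Populations were compared with limma on log2(mean TPM + 1), over 17 libraries with age as a covariate and Benjamini-Hochberg adjustment over all genes tested. The p-values measure the spread between libraries, which may be technical. In NBN against NSC, all 44 members had a negative difference, with a median of −1.79 log2 units against −0.11 for all genes, of which 55.7% were negative. Of the 44, 2 passed at an adjusted p under 0.05, both lower, Tk1 and Rrm2, against 1.33% of all genes. At an unadjusted p under 0.05, 28 members were lower, against 10.6% of all genes. Scaling the libraries to equal quantiles left 43 negative, with a median of −1.60 beside 0.04 for all genes.

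The number of members that passed turned on which libraries were in the fit. Without NSC E15.5, 11 members were lower in NBN than in NSC (2.39% of all genes), and without NBN P3, 9 were (2.75%). Without both, a comparison added after the data were seen, 17 were lower (4.00%): Tk1, Rrm2, Rrm1, Cdc6, Uhrf1, Mcm3, Cdc45, Gmnn, Fen1, Mcm4, Pcna, Gins1, Rfc1, Rfc3, Mcm6, Mcm10 and Ccne2. No member passed without NSC E17.5, NSC E18.5, NSC P0, NSC P1 or NBN E18.5, and 1 passed without NSC E11.5, NSC E13.5, BP P0 or NBN P1. In each of these fits the share of all genes that were lower was also under the 1.33% of the main fit. It was smallest without NSC P0, with 68 genes. Leaving only cells without a neuron profile in the NSC libraries, also added after the data were seen, gave 13 lower members (2.55%). Cells with that profile stayed in the BP and NBN libraries. When cells that held markers of other types were dropped, 4 were lower (1.49%): Fen1, Gins1, Tk1 and Uhrf1. With each stage as its own level instead of a slope on age, 7 were lower (1.70%): Cdc6, Gmnn, Mcm3, Mcm5, Rrm1, Tk1 and Uhrf1. Rrm2 is in neither of these sets. With log values averaged over cells the median of the 44 was −0.68, and with a pseudocount of 10 TPM −1.16.

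In BP against NSC, most members were again negative, and none passed. Of the 44, 41 were negative with a median of −1.22 log2 units, beside 0.14 for all genes, and Gins2, Cdc7 and Orc6 were positive. The lowest limma adjusted p was 0.120, for Mcm6, where 0.483% of all genes were lower, and 21 were lower at an unadjusted p under 0.05, against 6.99% of all genes. Without NSC E15.5, 8 members were lower in BP (1.06% of all genes), without both doubtful libraries 13 (2.43%), and with neuron-profile cells left out of the NSC libraries 11 (2.65%). Without NBN P3 alone, Mcm6 passed, against 0.883% of all genes. With log values averaged over cells the median was −0.77. Both comparisons use the same NSC libraries.

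Between NBN and BP, 37 of 44 members were negative, with a median of −0.61 log2 units against −0.23 for all genes. None passed, where 0.0213% of all genes were lower, and 4 (Orc6, Cdc45, Gins1 and Tk1) were lower at an unadjusted p under 0.05, against 6.63% of all genes. The direction over the list depended on how cells were averaged: with the mean of log2(TPM + 1) over cells, 16 of 44 were negative and the median was 0.21. The median was −0.32 without NBN P1 and −0.40 without BP P0, where all genes had −0.19 and −0.17, and it was −0.17 with a pseudocount of 10 TPM, −0.37 with stage as a factor and −0.95 without cells of other types. Without NBN P3 and NSC E15.5, Tk1 passed (−3.15, limma adjusted p = 0.0212), against 0.101% of all genes.

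**Figure D2:**
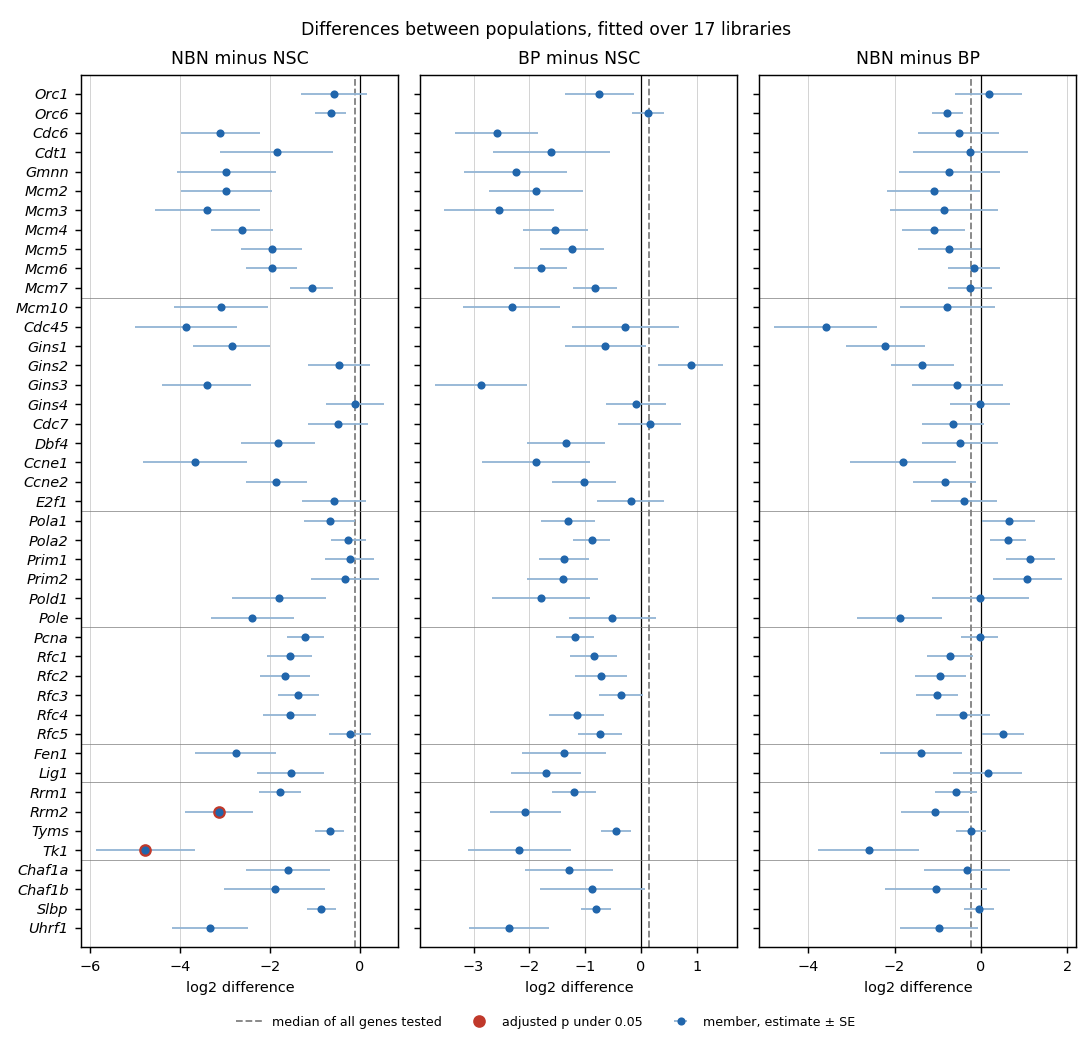
Fitted difference ± standard error (log2 units) of each gene for NBN minus NSC, BP minus NSC and NBN minus BP, over 17 libraries, with the median of all tested genes dashed and genes passing an adjusted p of 0.05 in red. Tk1 (−4.78) and Rrm2 (−3.14) in NBN minus NSC are the only red points.

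The nucleotide enzymes held both genes that passed. Tk1, thymidine kinase of the salvage route, had 0.77, 0.205, 0 and 9.81 TPM in NBN E16.5, E18.5, P1 and P3. It had 20.8, 7.57, 6.27, 11.9 and 14.4 TPM in the BP libraries from E12.5 to P0, and 0.396, 78.4 and 187 TPM as lowest, median and highest of the NSC libraries. Of the NSC libraries, only E15.5 lay within the NBN range, and the other 7 NSC libraries, at 64.4 TPM or more, lay above every BP library. Tk1 was −4.78 ± 1.10 in NBN against NSC (SE, limma adjusted p = 0.0337) and −2.18 ± 0.93 in BP against NSC (adjusted p = 0.306). The NBN call was lost when NBN E16.5, E18.5 or P1 or NSC E17.5, E18.5, P0 or P1 was left out, with a difference of −5.48 to −4.42 and an adjusted p of 0.000224 to 0.101 over the 17 fits without 1 library. Over 13 other settings it was lost in 3 (no filter, log values averaged over cells, no postnatal NSC libraries), and the difference was −6.24 (pseudocount of 0.1 TPM) to −1.07 (log values averaged), with an adjusted p of 1.01e-05 to 0.431. Tk1 lies at chr11:117815526-117826092 on the minus strand (GRCm38). Exons of Tk1 and Afmid overlap by 83 bases on opposite strands, and strand use in counting is not given in the sources used here.

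Rrm2, the small subunit of ribonucleotide reductase, was the most abundant member in NSC. It had 167, 61.1, 27.3 and 5.18 TPM in NBN E16.5, E18.5, P1 and P3, and 557, 71.2, 66.1, 205 and 77.0 TPM in the BP libraries in order of stage. The NSC libraries had 97.8 TPM at the lowest (E15.5), 660.4 TPM at the median and 1831 TPM at the highest (E10.5). NBN overlapped NSC only in that NBN E16.5 lay above NSC E15.5. BP E12.5 lay above NSC E15.5, E18.5 and P0, and BP E18.5 above NSC E15.5. The difference was −3.14 ± 0.75 in NBN against NSC (limma adjusted p = 0.0413) and −2.07 ± 0.63 in BP against NSC (adjusted p = 0.171). Rrm2 lies at chr12:24708241-24714146 on the plus strand (GRCm38). Its NBN call was lost in 9 of 17 fits without 1 library (NSC E11.5, E13.5, E17.5, E18.5, P0 or P1, BP P0, NBN E18.5 or P1), with a difference of −3.81 to −2.67 and an adjusted p of 0.00604 to 0.119. Over 13 other settings it was lost in 6 (a pseudocount of 0.1 TPM, no filter, no cells with markers of other types, log values averaged over cells, stage as a factor, no postnatal NSC libraries), with a difference of −3.57 to −2.34 and an adjusted p of 0.00319 to 0.383. Rrm1, the large subunit, had 33.1 to 64.8 TPM in NBN, 60.7 to 162 TPM in BP and 46.9 to 373 TPM in NSC, with −1.78 ± 0.47 in NBN against NSC (adjusted p = 0.0572). Thymidylate synthase, Tyms, spanned only 35.2 to 95.1 TPM in NBN, 63.7 to 104 TPM in BP and 64.2 to 149 TPM in NSC, at −0.67 ± 0.32 (adjusted p = 0.312).

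Among licensing genes, Cdc6 had low library means outside NSC. It was listed at 0 in NBN E18.5, P1 and P3 and had 2.50 TPM in NBN E16.5, while BP ranged between 0 (P0) and 6.52 TPM (E12.5). The NSC libraries had 0.0385 TPM at the lowest (E15.5), 24.9 TPM at the median and 57.2 TPM at the highest. All NSC libraries but E15.5 lay above all NBN and BP libraries. The difference was −3.11 ± 0.88 in NBN (limma adjusted p = 0.0719) and −2.59 ± 0.74 in BP (adjusted p = 0.150), both against NSC. By cell, Cdc6 was at 5 TPM or more in 3 NBN, 9 BP and 84 NSC cells, with medians of 9.42, 93.3 and 76.9 TPM in them. Cdt1, the other loading factor, was uneven among NSC libraries, with 0.11 TPM at E18.5 and 72.3 TPM at E13.5, and had at most 8.30 TPM in NBN and 16.6 TPM in BP. Gmnn had 27.6, 0.0514, 0 and 27.9 TPM in the NBN libraries, 68.4, 28.7, 21.7, 9.75 and 1.83 TPM in the BP libraries, lower at each later stage, and 13.6 to 398 TPM in NSC.

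The helicase subunits differed in how much they set NSC apart. Mcm3 had 17.0, 0, 0 and 32.7 TPM in the NBN libraries, 31.3, 20.0, 8.75, 1.09 and 16.1 TPM in the BP libraries, and 3.74, 89.7 and 322 TPM as lowest, median and highest in NSC. Only NSC E15.5 overlapped the others. Its difference was −3.40 ± 1.17 in NBN (limma adjusted p = 0.145) and −2.54 ± 0.99 in BP (adjusted p = 0.266), against NSC. Mcm4 was −2.62 ± 0.69 in NBN against NSC (adjusted p = 0.0568), with 5.72 to 70.1 TPM in NBN, 28.3 to 67.2 TPM in BP and 25.2 to 271 TPM in NSC.

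Mcm6 was the 1 member whose NSC libraries all lay above every BP library and, but for NSC E15.5, above every NBN library. It had 34.1, 9.08, 30.3 and 2.04 TPM in the NBN libraries, 25.1, 17.0, 22.0, 21.1 and 16.1 TPM in the BP libraries, and 31.6, 83.4 and 169 TPM as lowest, median and highest in NSC. Its difference was −1.97 ± 0.57 in NBN (limma adjusted p = 0.0778) and −1.80 ± 0.48 in BP (adjusted p = 0.120). Mcm5 had 40.5, 16.2, 1.37 and 3.32 TPM in the NBN libraries, 13.6 to 37.1 TPM in BP and 16.6 to 223 TPM in NSC, at −1.97 ± 0.69 in NBN (adjusted p = 0.149). Mcm2 had 0.163 to 11.2 TPM in NBN, 0.796 to 66.8 TPM in BP and 6.12 to 128 TPM in NSC, at −2.98 ± 1.01 in NBN (adjusted p = 0.139). Mcm7 was the most abundant subunit in every library but BP E16.5, where Mcm4 led with 64.5 TPM against 42.7 TPM. It kept 113 to 147 TPM in NBN, against 42.7 to 309.6 TPM in BP and 193 to 645 TPM in NSC, a difference of −1.08 ± 0.47 in NBN against NSC (adjusted p = 0.267). Mcm7 exons overlap those of Ap4m1 and Cops6 on the opposite strand. Of the origin recognition genes, Orc6 had 33.6 to 83.7 TPM in NBN, 88.1 to 146 TPM in BP and 69.4 to 206 TPM in NSC, while Orc1 stayed at or under 4.24 TPM in NBN and BP and reached 15.3 TPM in NSC E10.5.

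Origin firing genes were mixed. Cdc45 had 14.45, 0, 5.78 and 0 TPM in the NBN libraries and 104, 24.6, 21.3, 107 and 28.9 TPM in the BP libraries, with 0.701, 90.4 and 136 TPM as lowest, median and highest in NSC. The low end of NSC was E15.5 alone, and the next lowest NSC library had 60.3 TPM. BP E14.5, E16.5 and P0 lay below that value, and BP E12.5 and E18.5 above it. Few cells carried these high BP values: 8 of 72 in E12.5 and 4 of 62 in E18.5 had Cdc45 at 5 TPM or more. Cdc45 was −0.28 ± 0.95 in BP against NSC (limma adjusted p = 0.918). NBN was −3.88 ± 1.13 against NSC (limma adjusted p = 0.0805) and −3.60 ± 1.20 against BP (adjusted p = 0.363). Cyclin E1, Ccne1, was at most 0.0317 TPM in the 4 NBN libraries. Among BP libraries it reached 75.2 TPM at E18.5, with 3 of 62 cells at 5 TPM or more, and was listed at 0 at P0. Mcm10, which helps to start unwinding, had 8.54 TPM in NBN E16.5 and at most 0.0218 TPM in the other 3 NBN libraries, against 12.52 TPM or more in 7 of 8 NSC libraries and 0.688 TPM in NSC E15.5.

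The 4 GINS genes, subunits of 1 helicase complex, differed in size and sign. Gins3 was −3.41 ± 0.99 in NBN and −2.86 ± 0.83 in BP against NSC (limma adjusted p = 0.0781 and 0.152), and Gins1 was −2.86 ± 0.86 in NBN (adjusted p = 0.0901). Gins3 stayed at or under 3.55 TPM in NBN and 16.1 TPM in BP and reached 102.3 TPM in NSC P1, while Gins1 had 0 to 61.4 TPM in NBN, 10.7 to 114 TPM in BP and 45.0 to 134.98 TPM in NSC. Gins4 was −0.11 ± 0.65 in NBN and 0.09 after quantile scaling. Gins2 was −0.47 ± 0.69 in NBN but 0.89 ± 0.58 in BP against NSC (adjusted p = 0.514), with its highest value, 194 TPM, in BP E16.5 and its lowest, 5.07 TPM, in NSC P1. Gins2 shares 2758 bases of exon with Gse1 on the opposite strand, and Gse1 was also highest in BP E16.5 (327 TPM) and lowest in NSC P1 (0.516 TPM). Reads of the 2 genes cannot be told apart without strand.

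E2f1, a transcription factor of the G1/S switch, was low everywhere. It had 2.57, 16.6, 2.11 and 3.14 TPM in the NBN libraries, 16.4, 9.30, 4.26, 8.27 and 7.75 TPM in the BP libraries and 1.21 to 29.2 TPM in NSC, and the 3 populations overlapped. Cyclin E2, Ccne2, was −1.86 ± 0.68 in NBN against NSC (limma adjusted p = 0.170). Of the kinase genes, Dbf4 was −1.83 ± 0.83 in NBN (adjusted p = 0.286) and Cdc7 −0.49 ± 0.67 (adjusted p = 0.803). Dbf4 had 0.268 to 30.2 TPM in NBN, 3.56 to 39.7 TPM in BP and 18.7 to 99.4 TPM in NSC, and Cdc7 had 9.33 to 60.2 TPM, 24.9 to 107 TPM and 12.3 to 152 TPM in NBN, BP and NSC. For both, the populations overlapped.

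Among the genes of DNA synthesis, the clamp Pcna had 108, 112, 49.5 and 117 TPM in the NBN libraries, 101, 106, 77.1, 98.1 and 149 TPM in the BP libraries and 90.5, 250.6 and 470.5 TPM as lowest, median and highest in NSC. The 7 NSC libraries other than E15.5 lay above all NBN and BP libraries, and the difference was −1.21 ± 0.40 in NBN (limma adjusted p = 0.130) and −1.18 ± 0.34 in BP (adjusted p = 0.150). The pseudogene Pcna-ps2 was quantified beside it at 20.8 to 207 TPM, so reads may have been split between them. The clamp loader genes Rfc1 to Rfc4 lay between −1.66 (Rfc2) and −1.37 (Rfc3) in NBN against NSC, and Rfc5 at −0.23 ± 0.46. Polymerase and primase genes were the least shifted role in NBN, with a median of −0.50 over 6 genes, and several had the lower value in BP: Prim1, Prim2, Pola1 and Pola2 were −1.38, −1.40, −1.31 and −0.89 in BP against NSC, but −0.23, −0.33, −0.67 and −0.26 in NBN. No NBN minus BP difference of these 4 passed (limma adjusted p 0.552 or more). Pola2 had 84.0 to 123 TPM in NBN, 53.3 to 87.9 TPM in BP and 65.0 to 379 TPM in NSC. Prim1, the catalytic primase subunit, had 25.4 to 69.2 TPM in NBN, 12.2 to 59.9 TPM in BP and 24.6 to 294 TPM in NSC. The catalytic subunits of the 2 main replicative polymerases, Pold1 and Pole, were lower in level. They had no more than 12.8 and 13.6 TPM in NBN, 13.6 and 32.5 TPM in BP and 39.2 and 55.1 TPM in NSC. Their differences in NBN against NSC lay beyond the median of the role, at −1.80 ± 1.05 and −2.40 ± 0.93 (limma adjusted p = 0.432 and 0.196).

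Of the lagging strand enzymes, the flap nuclease Fen1 was −2.77 ± 0.90 and DNA ligase 1, Lig1, −1.55 ± 0.75 in NBN against NSC (limma adjusted p = 0.123 and 0.321). Fen1 had 0 to 19.2 TPM in NBN, 7.54 to 63.0 TPM in BP and 11.7 to 149 TPM in NSC, and Lig1 had 3.13 to 62.2 TPM, 17.1 to 67.9 TPM and 18.3 to 292 TPM in NBN, BP and NSC.

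Uhrf1, which guides methylation of newly copied DNA, had 22.7, 6.70, 0 and 15.9 TPM in the NBN libraries and 56.9, 18.48, 10.2, 28.2 and 11.8 TPM in the BP libraries, with 14.2, 156 and 351 TPM as lowest, median and highest in NSC. It was −3.33 ± 0.85 in NBN (adjusted p = 0.0530) and −2.37 ± 0.71 in BP (adjusted p = 0.163). The histone chaperone genes Chaf1a and Chaf1b were −1.60 ± 0.94 and −1.90 ± 1.12 in NBN (adjusted p = 0.435 and 0.434). Slbp, which binds histone mRNA, was −0.86 ± 0.32 (adjusted p = 0.179), with 80.9 to 154.8 TPM in NBN and 109 to 359 TPM in NSC.

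Promoters of the set are shown because E2F sites in them are the textbook route to joint expression. RefSeq promoter windows (GRCm38.p6, 250 bases before to 50 after each start) matched 35 of the 44 genes. At least 1 of the E2F words TTTCCCGC, TTTGGCGC, TTTCGCGC and TTTGCCGC, on either strand, lay in 13 of these 35 (37.1%), against 2.61% of 27025 genes with a window. The share was 34.1% of 44 other replication genes, 4.76% of 21 G2/M genes and 8.33% of 12 housekeeping genes. The word CCAAT, on either strand, lay in windows of 57.1% of members, 90.5% of G2/M genes, 50.0% of housekeeping genes and 41.1% of all. For the words TTTGAA or TTCGAA the shares were 22.9%, 81.0%, 25.0% and 21.7% in that order. Of the 4 windows below, those of Rrm2 and Tk1, the genes that passed, hold no E2F word, in the stretch shown or beyond it. Mcm5 and Mcm6 hold 2 and 3, with words that overlap counted each. The first bases after the start lay in an annotated (GENCODE) transcript for Rrm2 and Tk1 but not for Mcm5 and Mcm6. The start used for Mcm5 and Mcm6 is thus less certain. E2F and CCAAT words are in capitals. Only bases before the first annotated exon are printed, so the Tk1 stretch has 172 bases and ends at −79 from the start.
Rrm2 (GRCm38.p6, chr12:24708004-24708240, + strand): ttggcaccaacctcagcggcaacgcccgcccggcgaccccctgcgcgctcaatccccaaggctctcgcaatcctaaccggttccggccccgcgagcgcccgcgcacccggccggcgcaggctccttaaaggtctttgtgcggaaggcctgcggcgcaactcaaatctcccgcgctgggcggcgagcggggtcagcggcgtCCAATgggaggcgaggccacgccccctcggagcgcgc
Tk1 (GRCm38.p6, chr11:117826093-117826264, − strand): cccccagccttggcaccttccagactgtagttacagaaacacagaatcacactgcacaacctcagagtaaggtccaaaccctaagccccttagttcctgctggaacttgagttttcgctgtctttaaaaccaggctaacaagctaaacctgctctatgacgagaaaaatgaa
Mcm5 (GRCm38.p6, chr8:75109259-75109508, + strand): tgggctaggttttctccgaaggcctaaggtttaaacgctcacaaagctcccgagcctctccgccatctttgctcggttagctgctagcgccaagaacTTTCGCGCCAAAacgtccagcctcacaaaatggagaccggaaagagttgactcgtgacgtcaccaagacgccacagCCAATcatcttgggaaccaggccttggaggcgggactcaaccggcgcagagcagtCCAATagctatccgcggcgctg
Mcm6 (GRCm38.p6, chr1:128359706-128359955, − strand): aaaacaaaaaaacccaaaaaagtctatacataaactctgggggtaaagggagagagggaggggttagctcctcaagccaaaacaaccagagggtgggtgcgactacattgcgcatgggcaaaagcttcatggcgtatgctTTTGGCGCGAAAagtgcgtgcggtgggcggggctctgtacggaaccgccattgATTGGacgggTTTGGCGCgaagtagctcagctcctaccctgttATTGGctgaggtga
A match is a run of letters, not a shown binding site, and a window without a match says only that these letters are not in it.

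With age, no member passed in NSC. Of the 44 slopes, 39 were negative, with a median of −0.11 log2 units per day against 0.01 for all genes, none passed where 0.234% of all genes had a falling slope, and 3 had an unadjusted p under 0.05: Rfc4 (−0.22 ± 0.07, limma adjusted p = 0.163), Orc1 (−0.25 ± 0.10, adjusted p = 0.274) and Pola2 (−0.12 ± 0.05, adjusted p = 0.307). Without NSC E10.5, 33 were negative and the median was −0.05 (all genes −0.01), and with log values averaged over cells all 44 were negative with a median of −0.19. In BP, 26 of 44 slopes were negative with a median of −0.04, beside 0.02 for all genes, and without BP E12.5 18 were negative with a median of 0.08. The median was −0.09 without BP E14.5 and −0.12 without BP P0. None passed, 0% of all genes had a falling slope that passed, and no member had an unadjusted p under 0.05. The slope of BP minus that of NSC passed for no member, against 0.00710% of all genes in the falling direction, and 1 member, Orc1, had an unadjusted p under 0.05. When each cell was put on the log scale before averaging, 27 members had falling NSC slopes that passed, against 13.4% of all genes. Rrm2 then had −0.49 per day (adjusted p = 0.0202), Rfc4 −0.45 (adjusted p = 0.0029), Mcm7 −0.42 (adjusted p = 0.00541) and Uhrf1 −0.41 (adjusted p = 0.00833). That average follows the number of cells with a transcript, and genes per cell were also lower late, at 3428 in NSC E18.5 and 3371 in NSC P1 against 5688 in NSC E10.5, though 5076 in NSC P0. Their part in these slopes was not tested.

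Cells were next scored 1 by 1. A cell was given an S profile when 18 or more of the 44 members were at 5 TPM or more and their share was at least that of 24 G2/M genes, and a G2/M profile when 10 or more of the G2/M genes were and their share was higher. These are ranges of a score, not a measure of DNA content, and 4 NBN, 10 BP and 43 NSC cells lay near the S limit, with 16 to 19 members. The S profile was held by 5 of 208 NBN cells, 10 of 335 BP cells and 23.5% of 532 NSC cells. The mean over libraries was 2.21% ± 3.00 in NBN (SD, n = 4), 2.92% ± 2.30 in BP (SD, n = 5) and 22.3% ± 19.0 in NSC (SD, n = 8). G2/M profiles averaged 2.65% ± 3.31, 5.69% ± 4.92 and 22.1% ± 10.8 of cells in NBN, BP and NSC. With 1 TPM as the level for detection the means were 3.63% in NBN, 5.45% in BP and 23.1% in NSC, and with 30% of the list they were 4.42%, 10.6% and 25.9%. With 50% of the list NBN had 1.19%. The NBN mean was 0.833% without NBN E16.5, and the BP mean was 1.91% without BP E12.5 and 1.88% over cells with 3000 to 6000 genes. The NSC mean was 33.7% without neuron-profile cells. As members were chosen with earlier results known, these shares carry no test.

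By stage, the S profile was held in NBN by 6.35% of cells at E16.5 (exact 95% interval 1.76 to 15.47%), 0 of 66 cells at E18.5, which allows a share of up to 4.55%, 0 of 39 at P1, which allows up to 7.69%, and 2.50% at P3. Those limits are 3 counts of the total, and the upper ends of the exact 95% intervals are 5.44% and 9.03%. In BP it was held by 6.94% of cells at E12.5 (2.29 to 15.47%), 2.22% at E14.5, 2.47% at E16.5, 1.61% at E18.5 and 1.33% at P0 (0.0338 to 7.21%). In NSC it was held by 64.8% of cells at E10.5 (53.9 to 74.7%), 22.4% at E11.5, 28.8% at E13.5, 1.16% at E15.5, 14.47% at E17.5, 12.1% at E18.5, 20.0% (9.58 to 34.6%) on P0 and 14.9% on P1. Intervals and limits cover counting error only. At E18.5, where all 3 populations were sampled, 0 of 66 NBN, 1 of 62 BP and 8 of 66 NSC cells had the S profile, and 1, 2 and 15 had the G2/M profile.

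**Figure D3:**
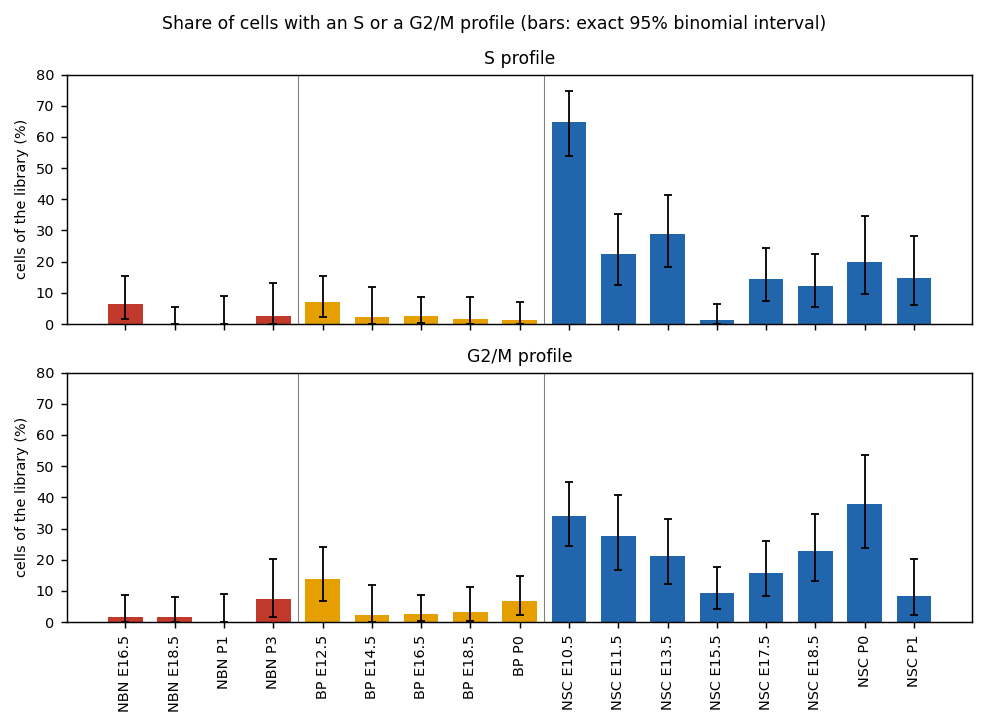
Share of the cells of each library with an S profile (top) and a G2/M profile (bottom), with exact 95% binomial intervals, NBN, BP and NSC from left to right. NSC E10.5 stands at 64.8% S, and NSC P0 is the highest for G2/M at 37.8%.

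The ratio of S to G2/M profiles varied between libraries. In NSC E10.5 there were 57 S to 30 G2/M cells and in NSC E13.5 19 to 14, but 8 to 15 in NSC E18.5 and 9 to 17 in NSC P0. In BP E12.5 there were 5 to 10. Within NSC libraries, leaving out neuron-profile cells gave S shares of 65.1% at E10.5 (86 cells), 40.7% at E11.5 (27), 51.6% at E13.5 (31), 11.1% at E15.5 (9), 50.0% at E17.5 (18), 16.3% at E18.5 (49), 20.45% on P0 (44) and 14.6% on P1 (41). The exact intervals of E17.5 (26.0 to 74.0%) and E18.5 (7.32 to 29.7%) overlap slightly. Median genes per cell were 4894.5 at E17.5, 3428 at E18.5 and 5076 at P0, and the part of depth was not tested. All 10 BP cells with the S profile also had the neuron profile, as did 330 of all 335 BP cells, while 2 of the 5 NBN cells did.

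**Figure D4:**
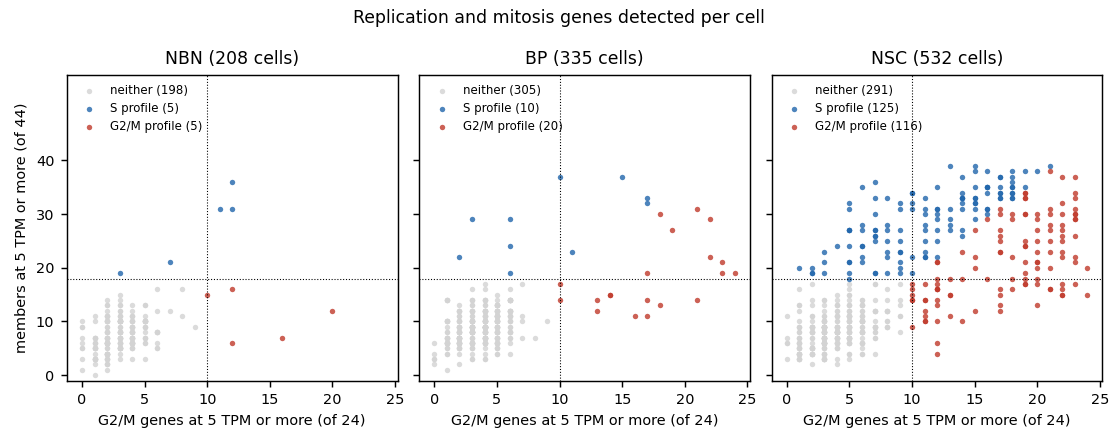
Each of the 1075 cells by the number of G2/M genes (x axis, of 24) and of members (y axis, of 44) at 5 TPM or more, in NBN, BP and NSC, with the limits of 10 and 18 dotted. Most NBN and BP cells gather in the lower left corner, and NSC cells also fill the S profile (23.5% of them).

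The members differed in how tightly they kept to cycling cells. To count each gene, profiles were made from the other genes. Tk1 was at 5 TPM or more in 60.6% of cells with the S profile, 41.0% with the G2/M profile and 1.9% with neither. Cdc6 was in 49.3%, 14.8% and 0.9%, Mcm3 in 85.3%, 42.4% and 3.8%, Uhrf1 in 95.5%, 77.4% and 12.3%, and Rrm2 in 96.3%, 87.7% and 16.1%. Cdc6, Mcm3, Cdt1 (43.3% and 17.1%), Ccne1 (32.1% and 8.6%) and Chaf1b (59.0% and 22.54%) were thus at least 2 times as frequent in S as in G2/M profiles. Dbf4 went the other way, with 42.9% in S and 54.6% in G2/M profiles. Genes of a background kind were Pola2 (100%, 100% and 99.4%), Tyms (99.3%, 98.6% and 93.6%) and Slbp (100%, 93.8% and 91.6%), whose mean levels still differed, at 269, 177 and 82.6 TPM for Pola2, 206, 144 and 65.9 TPM for Tyms and 419, 266 and 111 TPM for Slbp.

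**Figure D5:**
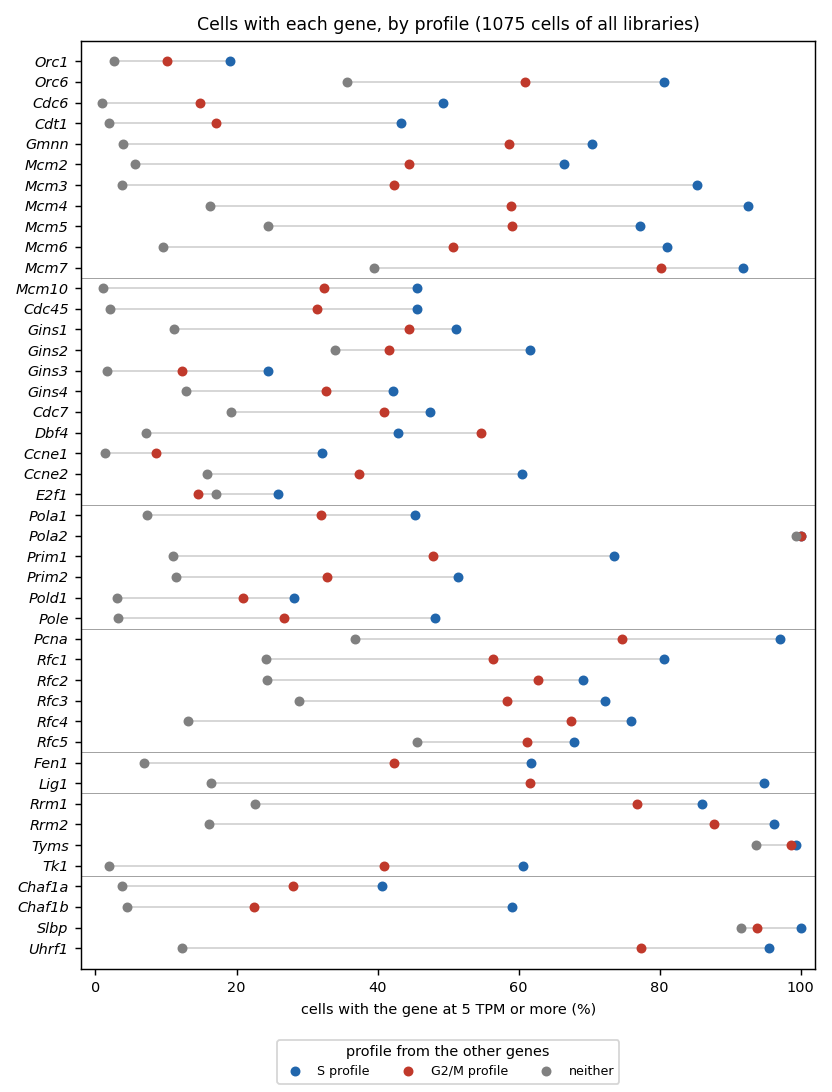
Share of cells with each gene at 5 TPM or more among cells with an S profile, a G2/M profile or neither, the profile being made from the other genes. Dbf4 is the 1 gene whose G2/M share (54.6%) is above its S share (42.9%), and Pola2, Tyms and Slbp sit near 100% throughout.

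Some members had like means in S-profile cells of BP and NSC, and others did not. Rrm2 averaged 2173 TPM in 10 S-profile BP cells and 2083 TPM in 119 S-profile NSC cells, Pcna 667 and 676 TPM, and Uhrf1 442 and 457 TPM. Mcm7 was lower in these BP cells (254 against 730 TPM) and Tyms higher (353 against 195 TPM). Outside the profiles, Rrm2 averaged 31.8 TPM in BP and 90.2 TPM in NSC cells. The profile was made from these genes' partners and 10 cells are few, so the values are a description.

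Single libraries show how few cells carried a mean. In NBN E16.5, 18 of 63 cells had Rrm2 at 5 TPM or more, the highest at 3675.5 TPM. The 5 cells with an S or G2/M profile averaged 1615 TPM and the other cells 42.7 TPM. In BP E12.5, 16 of 72 cells had Rrm2, and its 15 profile cells averaged 2622 TPM against 13.9 TPM in the rest. In NSC E10.5, 86 of 88 cells had it. Gmnn-positive cells (5 TPM or more) had like medians, 300.1, 313 and 295 TPM in NBN, BP and NSC. They numbered 9, 25 and 177, or 4.3%, 7.5% and 33.3% of cells, and 3 of the 9 NBN cells came from P3. For Rrm2 the positive cells differed too, with 65.5, 273 and 1071 TPM in 16.8%, 17.3% and 54.9% of cells. E2f1 was the gene found in most BP cells relative to NSC, 27.2% against 15.0% (10.6% in NBN), at a median of 8.2 TPM in positive BP cells.

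The helicase ring needs all of Mcm2 to Mcm7 in the same cell. All 6 were at 5 TPM or more in 1 of 208 NBN cells (0.481%), 4 of 335 BP cells (1.19%) and 78 of 532 NSC cells (14.7%). No subunit reached 5 TPM in 43.8% of NBN, 28.1% of BP and 18.2% of NSC cells. A missing value in 1 cell may be a transcript that was not captured.

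Within the 305 NSC cells without a neuron profile, the 946 pairs of members had a median Spearman correlation of 0.33, beside 0.16 for pairs of housekeeping genes. The closest pair was Lig1 and Rrm2 (0.70), followed by Pcna and Rrm2 (0.62), Rrm2 and Uhrf1 (0.61) and Lig1 and Uhrf1 (0.61). The cells come from 8 libraries of differing depth, and the number of members detected also followed genes per cell (0.74), so these values are descriptions. Over the 17 libraries, Uhrf1 (Pearson r = 0.95), Pcna (0.93) and Rrm1 (0.92) were most like the mean of the other members, and Gins2 (0.18), Gins4 (0.47) and Orc1 (0.48) least.

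Among 12612 other genes, the 10 most like the mean of the 44 over the 17 libraries were Hist1h2ap (0.94), Hist1h2ah, Hist1h2ak, Hist1h2ad, Hist1h2ag, Pcna-ps2, Hist1h2ao, Ncapg, Hist1h2an and H2afz (0.92). The 7 Hist1h2a genes code for near-identical H2A histones, so reads may have been shared among them, and Pcna-ps2 is the Pcna pseudogene named above. H2afz, a variant histone, had 1075 to 1413 TPM in NBN, 1240 to 2678 TPM in BP and 1808 to 5775 TPM in NSC. Ncapg, a condensin subunit, had 0.49 to 12.3 TPM in NBN, 3.37 to 12.52 TPM in BP and 7.62 to 92.7 TPM in NSC.

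Other cell cycle lists had negative medians too, set here against 1.33% of all genes lower in NBN than in NSC and a median of −0.11. Of 52 other replication genes, 5 were lower in NBN than in NSC (limma adjusted p under 0.05), among them Dut (−2.41), Dtl (−3.20), Rnaseh2b (−3.13) and Clspn (−3.80), and the median was −1.01. Of 18 E2F, pocket and partner factors, E2f8 was lower (−2.71), with a median of −1.003, and of 18 S phase checkpoint and repair genes, Rad51ap1 (−4.14) and Usp1 (−2.57) were, with a median of −1.61. Of 24 G2/M genes, 13 were lower, with a median of −3.48: Aurka, Bub1, Ccnb2, Cdc20, Cenpa, Cenpe, Cenpf, Kif23, Mki67, Top2a, Tpx2, Ttk and Ube2c. In BP against NSC, the medians were −0.69, −0.46, −1.19 and −1.71 for the 4 lists in that order, against 0.14 for all genes, and Ccnf, a G2/M gene, passed (−3.75, limma adjusted p = 0.0173), where 0.483% of all genes were lower. The lists were chosen with earlier results known, and lists were not tested against each other.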

How the data were processed

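Single cells were captured on a Fluidigm C1, and libraries were made with SMARTer and Nextera XT kits, per the labels' protocols. The authors deposited TPM per gene and cell, from kallisto 0.43.0 with the builds GRCm38.p2 and mm10, per the submitters' processing notes. For 7 near-empty cells the deposited column holds only whole numbers, recorded as a score and read on the TPM scale. Each column sums to between 999993.0 and 1000012.8, so depth is unknown and no counting interval can be given for a level. No 2 cells had identical columns (highest correlation 0.9142).

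Cells with fewer than 500 genes at 1 TPM were left out (19 of 1094). TPM was averaged over the cells of a library, log2(mean TPM + 1) was fitted with limma 3.58.1 in R 4.3.3 over 17 libraries with population and age, separate age slopes were fitted for NSC and BP, and p-values were adjusted by Benjamini and Hochberg over the 14093 genes tested. Differences on this scale understate those of low genes. Profiles used 5 TPM and 40% of a list, and shares have exact 95% binomial intervals, with 3 counts of the total as the limit for a share of 0. A cell held markers of another type with 3 or more of that type's genes at 10 TPM.

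All 44 members are named. Of the other lists, genes that passed in any comparison are named, except 1 that is not reported here, as are the 10 genes most correlated with the members over libraries. The members and lists were chosen with earlier results of these data known. Values of genes that share reads with a copy (Pcna) are uncertain, as are those of the 15 members with exons that overlap a gene on the opposite strand (Orc1, Orc6, Mcm7, Cdc45, Gins2, Ccne2, Pole, Rfc2, Rfc4, Rfc5, Fen1, Lig1, Tk1, Chaf1a and Slbp). Alternatives covered the pseudocount, filters, cells kept, averaging, scaling, stage and each library.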

Additional observations from a re-analysis of the deposited data

Results flagged for a closer look

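In 141 groups of 4 to 8 libraries, 18 held 1 library far from the rest of its group. Chance flags about 1 in 20 groups when they are independent. These groups share libraries and hold genes that vary together, so 18 cannot be set against that rate. NSC E15.5 was the low library for Cdc6 (0.0385 TPM, next 16.0), Mcm3 (3.74, next 67.0), Mcm10 (0.688, next 12.52), Cdc45 (0.701, next 60.3), Lig1 (18.3, next 83.8), Rrm1 (46.9, next 174.6), Rrm2 (97.8, next 471) and Tk1 (0.396, next 64.4). In that library 77 of 86 cells had the neuron profile, and its part in these values was not tested.

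Elsewhere in NSC, Gins2 was low in P1 (5.07 TPM, next 30.2) and Ccne1 was low in P0 (0.326 TPM, next 11.1). In NBN, Cdc6 was listed above 0 only in E16.5 (2.50 TPM). As the remaining NBN libraries were at 0, any Cdc6 value above 0 there would have been flagged. Mcm10 was high in NBN E16.5 (8.54 TPM, next 0.0218), E2f1 was high in NBN E18.5 (16.6 TPM, next 3.14) and Pcna was low in NBN P1 (49.5 TPM, next 108). In BP, Mcm7 was low in E16.5 (42.7 TPM, next 181) and Rrm1 was high in E12.5 (162 TPM, next 77.7). The S-profile share was high in BP E12.5 (6.94%, next 2.47%) and in NSC E10.5 (64.8%, next 28.8%).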

How the results depend on the processing

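Members lower in NBN than in NSC numbered 1 with a pseudocount of 0.1 TPM (162 of all 14093 genes). None was lower with no filter (91 of 19873), with log values averaged over cells (91 of 14093) or without postnatal NSC libraries (11 of 13849). They numbered 4 with a filter of 5 TPM (217 of 11823) or without cells of other types (1.49%). With stage as a factor 7 were lower (1.70%), without neuron-profile NSC cells 13 (2.55%), and without NBN P3 and NSC E15.5 17 (4.00%). With 1 library left out they numbered 0 to 11, where 68 to 383 of all genes were lower. In BP against NSC, 11 members were lower without neuron-profile NSC cells (2.65% of all genes) and 13 without both libraries (2.43%). With 1 library left out, 0 to 8 were, where 26 to 148 of all genes were lower. In NBN against BP 1 passed without both libraries (0.101%), and 27 NSC slopes passed with log values averaged (13.4%). Leaving out both libraries, neuron-profile NSC cells or postnatal NSC libraries was chosen after seeing the data. The Rrm2 call was lost in 9 of 17 fits without 1 library (NSC E11.5, E13.5, E17.5, E18.5, P0 or P1, BP P0, NBN E18.5 or P1; adjusted p 0.00604 to 0.119) and the Tk1 call in 7 (NBN E16.5, E18.5 or P1, NSC E17.5, E18.5, P0 or P1; adjusted p 0.000224 to 0.101). The cause was not tested.

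Signs reversed in genes that had not passed. In NBN against NSC, stage as a factor gave Orc1 0.48, Cdc7 0.18 and E2f1 0.32, quantile scaling gave Gins4 0.0899, and Prim2 was 0.0505 without neuron-profile NSC cells and 0.15 without postnatal NSC libraries. Rfc5 was 0.0616 without cells of other types and 0.0674 with log values averaged. With 1 library left out, Orc1 ran from −1.04 to 0.0259, Gins4 from −0.46 to 0.27, Prim2 from −0.77 to 0.30 and Rfc5 from −0.44 to 0.0135. In BP against NSC, stage as a factor gave Orc1 0.68, Gins4 0.17 and Cdc7 −0.34, and leaving out postnatal NSC libraries gave Cdc45 0.30 and Pole 0.16. Cdc7 was −0.0339 and E2f1 0.10 without cells of other types, Cdc7 was −0.24 and E2f1 0.47 with log values averaged, and Cdc7 was −0.30 without neuron-profile NSC cells. With 1 library left out, Gins4 ran from −0.32 to 0.13, Cdc7 from −0.15 to 0.45 and E2f1 from −0.51 to 0.0732. Tk1 in NBN against BP was 0.28 with log values averaged. The BP S-profile share was 5.45% at 1 TPM and 10.6% at 30% of the list.

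No paired analysis was possible because the replicate numbers are cell numbers within a library. Leaving neuron-profile cells out of both NSC and BP was not run, since 2 BP libraries would hold no cell. With 1 library per population and stage, stage and library cannot be told apart.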

Other observations

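Among the 19 cells left out for few genes, 1 from NSC P0 with 5 genes held Rrm1 at 104470 TPM, and 1 from NSC E13.5 with 124 genes held Prim2 at 23202 TPM.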
